A study of Homo sapiens with 5 samples.

Results

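Chromosomes 2 and 11 of the human leukaemia line HL60 were described from the bins into which the genome was divided, each 0.5 Mb long, in 3 Hi-C contact matrices. They held 757 of the 6203 bins, 487 on chromosome 2 and 270 on chromosome 11. The chromosomes were chosen by the absence of large joins to other chromosomes, selected on the contact counts of these matrices: in the sum of the 3 matrices, a join was a pair of bins with at least 20 contacts and at least 10 times the contacts expected from the coverage of both bins. Of the 757 bins, 740 passed the coverage filter of at least 0.2 times the genome's median bin in every matrix, 475 on chromosome 2 and 265 on chromosome 11. The other 17 lay mostly in and beside the centromeric gaps, and 11 of them were empty.

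HL60 cells were treated with retinoic acid (ATRA), treated with the phorbol ester TPA, or left untreated. The ATRA matrix came from 1 library, and the TPA matrix and the untreated matrix each came from 2 libraries that had been summed before deposit. Doses and treatment times are not given in the labels. The matrices held 9632300 contacts for ATRA, 10423501 for TPA and 10628045 for untreated cells on the autosomes and chromosome X, and the median bin held 3272, 3466 and 3461 contacts, in that order. No condition has a replicate that can be separated, so no test between conditions was possible, and each interval below is a 95% interval for counting error alone. Library and treatment effects cannot be told apart. Cells of 1 line were the only source, so the copies and rearrangements of HL60 chromosomes are carried by all 3 groups.

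Hi-C joins pieces of DNA that lay close together in the nucleus, and counts how often each pair of bins was joined. Contacts become rarer with distance along a chromosome, arms and whole chromosomes keep to territories of their own, and bins sort into an A side, which is gene-rich and active, and a B side, which is gene-poor and silent. HL60 is a promyelocytic leukaemia line that matures towards granulocytes with ATRA and towards macrophages with phorbol esters. Human chromosome 2 arose by the head-to-head fusion of ancestral chromosomes that are separate in other apes, and chromosome 11 is rich in genes, among them the beta-globin cluster and many olfactory receptor genes. Chromosome 2 carries 1254 protein-coding genes in RefSeq, or 5.15 per Mb, and stood 17th of 23 chromosomes in gene density. Chromosome 11 carries 1301, or 9.64 per Mb, and stood 3rd. No gene was placed in a bin, because the files use the build hg19 and no annotation of that build was used here.

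The description of both chromosomes as free of large joins held for chromosome 2 apart from single bins, and did not hold for chromosome 11. On chromosome 2, 4 bin pairs met the rule. The bin at 91.5 Mb, beside the centromeric gap, met bins of chromosome 1 at 149.0 Mb (36 contacts, 41.0 times expected), 145.5 Mb (24 contacts, 29.6 times) and 117.0 Mb (26 contacts, 15.1 times, the value just inside the threshold). The bin at 133.0 Mb met the bin at 33.5 Mb of chromosome 16 with 24 contacts, 17.1 times expected. No neighbouring bin of chromosome 2 met the rule with these partners. The bins at 91.0 and 132.5 Mb, next to those of these pairs, had failed the coverage filter, which limits that reading. In the sum of the matrices no window of 5 Mb on another chromosome reached 1.5 times expected. This was measured over stretches of about 20 to 45 Mb of chromosome 2. The highest window was at 1.49 times, between 118.5 to 139.5 Mb and chromosome 5. On chromosome 11 no bin pair met the rule. The value just outside it was 9.70 times, at 28.5 Mb of chromosome 11 and 127.0 Mb of chromosome 8, with 40 contacts in ATRA, 35 in TPA and 48 in untreated cells. That pair belonged to a wide block of raised contacts, described below, so chromosome 11 is treated here as a chromosome with unusual contacts to chromosomes 8 and 6.

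On both chromosomes, contacts under 2 Mb apart made up a smaller share in the treated cells than in untreated cells. On chromosome 2, 21.9% of the contacts between different bins of the chromosome spanned less than 2 Mb in ATRA (interval 21.8 to 22.1), 21.6% in TPA (21.5 to 21.8) and 28.9% in untreated cells (28.7 to 29.0). On chromosome 11 the share was 28.4% in ATRA (28.2 to 28.7), 27.8% in TPA (27.6 to 28.1) and 37.1% in untreated cells (36.9 to 37.4). ATRA and TPA lay close to each other on both chromosomes, and untreated cells lay far above them. Against untreated cells, chromosome 2 differed by -6.94 percentage points in ATRA (-7.16 to -6.71) and -7.25 in TPA (-7.46 to -7.03), and chromosome 11 by -8.71 in ATRA (-9.07 to -8.36) and -9.29 in TPA (-9.62 to -8.96). Over all 23 chromosomes the median was -7.41 in ATRA and -8.38 in TPA. Chromosome 2 fell by less than the median in both treatments, and chromosome 11 by more. Counted from the largest fall, chromosome 11 ranked 4th in ATRA and 3rd in TPA, and chromosome 2 ranked 17th and 20th.

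Contacts within the chromosome were also a smaller share of all contacts that touched it. Chromosome 2 kept 22.7% of its contacts to itself in ATRA, 27.2% in TPA and 28.7% in untreated cells, and chromosome 11 kept 19.2%, 23.3% and 25.3%. The medians of 23 chromosomes were 18.3%, 20.8% and 23.8%. ATRA was the lowest of the 3 on both chromosomes, and TPA lay nearer to untreated cells. As a share of all contacts of its matrix, contacts of chromosome 2 at 0.5 Mb to under 1 Mb stood at 0.648 times the untreated share in ATRA and 0.714 in TPA, and those of chromosome 11 at 0.603 in ATRA and 0.683 in TPA. From 2 to 5 Mb the treatments parted, with ATRA at 0.842 times the untreated share on chromosome 2 (0.829 to 0.855) and 0.813 on chromosome 11 (0.796 to 0.830), and TPA at 1.01 on both (0.991 to 1.02 and 0.996 to 1.03). Between 5 and 10 Mb TPA was at 1.24 times the untreated share on chromosome 2 (1.21 to 1.26) and 1.19 on chromosome 11 (1.16 to 1.21), and ATRA was at 0.948 (0.930 to 0.966) and 0.959 (0.936 to 0.983). Beyond 10 Mb, TPA stayed between 1.05 and 1.20 on chromosome 2 and between 1.11 and 1.14 on chromosome 11, and ATRA between 0.971 and 1.01 on chromosome 2 and between 0.958 and 1.02 on chromosome 11.

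**Figure D1:**
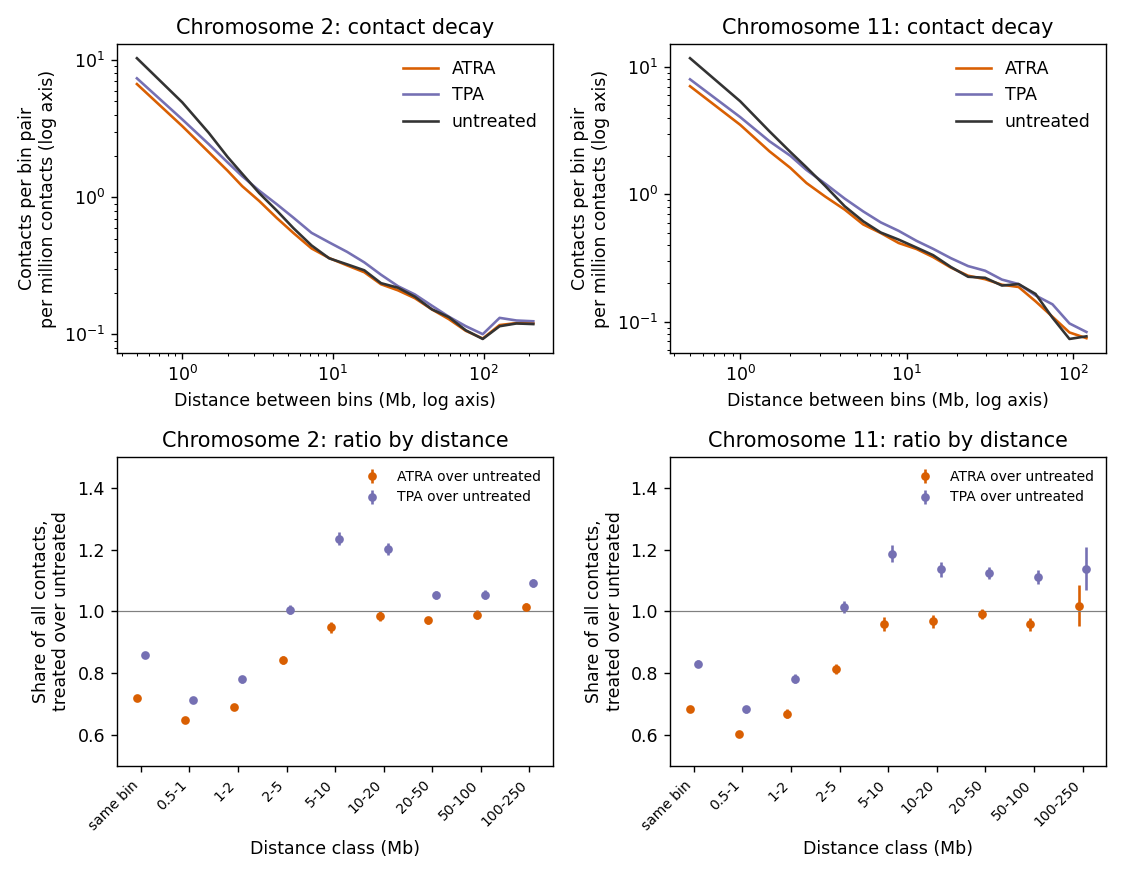
Top: mean contacts per bin pair, scaled to the matrix's total (log axis), against the distance between the bins in Mb (log axis), for ATRA, TPA and untreated cells on each chromosome. Bottom: share of all contacts in each distance class, treated over untreated, with 95% counting intervals as bars; both treatments lie below 1 under 2 Mb, and TPA lies above 1 from 5 Mb on.

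The decay was less steep in treated cells over 1 to 10 Mb. The slope of log10 contacts per bin pair on log10 distance was -0.986 in ATRA, -0.908 in TPA and -1.16 in untreated cells on chromosome 2, and -0.940, -0.922 and -1.12 on chromosome 11. Over 10 to 100 Mb the slopes were -0.631 in ATRA, -0.686 in TPA and -0.641 in untreated cells on chromosome 2. On chromosome 11 they were -0.702 in ATRA, -0.685 in TPA and -0.749 in untreated cells. In counts, neighbouring bins of chromosome 2 shared 64.5 contacts on average in ATRA, 76.9 in TPA and 109.8 in untreated cells, and those of chromosome 11 shared 68.0, 83.4 and 124.6. At 10 Mb the averages were 3.51 in ATRA, 4.79 in TPA and 3.63 in untreated cells on chromosome 2, and 3.51, 5.01 and 4.26 on chromosome 11. The chromosomes therefore gave similar counts per bin pair at these distances although their lengths differ. Their shares at long range differed: contacts over 50 Mb apart made up 31.8% in ATRA, 30.2% in TPA and 27.8% in untreated cells on chromosome 2, the highest of 23 chromosomes in every matrix, and 13.8%, 13.6% and 11.8% on chromosome 11, which ranked 11th.

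By raw contacts, the arms of chromosome 2 met each other about as often as distance alone gave. Those of chromosome 11 met far less often. The centromeric gap without usable bins ran from 92.5 to 95 Mb on chromosome 2 and from 52.0 to 54.5 Mb on chromosome 11. Contacts between the short and the long arm made up 24.4% of the contacts between bins of chromosome 2 in ATRA, 23.3% in TPA and 21.3% in untreated cells, and 16.7%, 16.3% and 14.6% on chromosome 11. Set against the mean of pairs at the same distance within either arm, contacts between the arms of chromosome 2 stood at 1.04 times expected in ATRA, 1.07 in TPA and 0.964 in untreated cells. Those of chromosome 11 stood at 0.579 in ATRA, 0.565 in TPA and 0.617 in untreated cells. By raw contacts this was the lowest of the 14 chromosomes with 2 arms long enough to measure in every matrix. The medians of the 14 were 0.849, 0.875 and 0.890. The ratio covers only distances at which pairs within an arm had contacts. In ATRA it held 41062 of the 63002 contacts between the arms of chromosome 2, and 14598 of 19367 on chromosome 11.

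Against untreated cells the ratio was higher in treated cells on chromosome 2, at 1.08 times in ATRA (1.06 to 1.09) and 1.11 in TPA (1.10 to 1.12), and lower on chromosome 11, at 0.937 in ATRA (0.917 to 0.958) and 0.915 in TPA (0.896 to 0.934). For chromosome 11 in TPA the direction depended on the expectation: with expected contacts taken from all 14 chromosomes the log2 ratio was 0.01 in place of -0.13. On chromosome 2 treated cells were higher mainly at the longest distances, and lower at under 20 Mb. The expectation at over 100 Mb comes from the long arm alone, because the short arm measures 92.5 Mb. Between arms at over 100 Mb the contacts were 1.20 times expected in ATRA, 1.25 in TPA and 0.975 in untreated cells, and at under 20 Mb, across the centromere, they were 0.674, 0.578 and 0.804. On chromosome 11 they were 0.836 in ATRA, 0.788 in TPA and 1.14 in untreated cells at under 20 Mb, and 0.483, 0.461 and 0.473 at 50 to 100 Mb. That last class holds only distances found within the long arm of 80.5 Mb. Along the short arm of chromosome 11, raw contacts with the long arm moved with coverage: the end of the arm up to 28 Mb, where coverage is low, met the long arm at 0.639 times the chromosome's own mean at the same distance in ATRA, 0.651 in TPA and 0.677 in untreated cells, and 28 to 52 Mb met it at 0.991, 0.978 and 1.02. That mean includes pairs between the arms, unlike the expectation above, so these values do not place the deficit. By the same mean with bins balanced to equal coverage, the end of the arm stood at 0.921, 0.909 and 0.944. There 28 to 52 Mb stood at 0.904, 0.892 and 0.933. Against the expectation from pairs within either arm, with each bin balanced, the arms of chromosome 11 stood at 0.781 in ATRA, 0.743 in TPA and 0.837 in untreated cells. Those of chromosome 2 stood at 1.13, 1.21 and 1.09. After balancing, chromosome 11 was no longer the lowest in any matrix. Chromosome 5 was lower in ATRA (0.746), chromosome X in TPA (0.709), and chromosomes 5 (0.780) and X (0.726) in untreated cells.

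Coverage, the number of contacts a bin made with other chromosomes over the genome's median bin, moved in steps along both chromosomes, and the steps were alike in the 3 matrices. A step was a boundary at which the medians of 10 bins on either side differed by at least 0.4 on the log2 scale in every matrix. Chromosome 2 had 7 steps (2.95 per 100 Mb) and chromosome 11 had 4 (3.02 per 100 Mb), beside 74 over the autosomes and chromosome X (2.63 per 100 Mb). With medians of 20 bins there were 3 and 2: on chromosome 2 those beside the centromere and at both edges of the low stretch described next, and on chromosome 11 that at the end of the low tip and another at 111.0 Mb. All contacts gave 9 and 7. In bulk matrices, fewer copies of a segment and fewer contacts per copy cannot be told apart. No step was seen in 1 matrix only, because the rule asked for all 3.

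On chromosome 2 the lowest wide stretch ran from 118.5 to 139.5 Mb on the long arm. Its median coverage was 0.514 in ATRA, 0.493 in TPA and 0.485 in untreated cells, against 0.942, 0.919 and 0.918 at 95 to 118.5 Mb and 0.939, 0.888 and 0.875 at 139.5 to 243.5 Mb. Its edges were sharp. The bin at 118.0 Mb stood at 0.946 in ATRA, 0.887 in TPA and 0.833 in untreated cells, and the next bin at 0.597, 0.567 and 0.537. At the other edge the bin at 139.0 Mb stood at 0.525, 0.499 and 0.468, and the next at 0.841, 0.796 and 0.774. The step rule, which compares medians of 10 bins, placed these edges at 120.5 Mb (-0.66 in ATRA, -0.66 in TPA and -0.63 in untreated cells) and 140.5 Mb (0.67, 0.72 and 0.68). Both compartment sides were low in the stretch: its 11 bins of the A side had a median of 0.489 in ATRA, 0.499 in TPA and 0.482 in untreated cells, and its 30 bins of the B side 0.524, 0.493 and 0.485. Contacts within the stretch were low too, with 8.87 contacts per bin pair at 1 to 5 Mb in ATRA, 12.3 in TPA and 13.1 in untreated cells, against 14.7, 18.1 and 21.1 at 139.5 to 243.5 Mb.

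The flanks of that stretch met each other more than other bins at the same distance. Between 115.5 to 118.5 Mb and 139.5 to 142.5 Mb there were 169 contacts in ATRA, 196 in TPA and 245 in untreated cells. This was 2.14 times the chromosome's mean at the same distances in ATRA (1.83 to 2.49), 2.05 in TPA (1.78 to 2.36) and 2.68 in untreated cells (2.35 to 3.04), and 2.74, 2.61 and 3.83 times after balancing. Pairs of windows of 3 Mb whose starts lie 24 Mb apart were then followed along the whole chromosome. The pair at the flanks ranked 5th of 205 by raw contacts and 1st by balanced contacts in the sum of the matrices. The 200 pairs elsewhere had medians of 0.907 in ATRA, 0.954 in TPA and 0.881 in untreated cells, and the highest of them reached 2.99, 2.28 and 3.23, so single pairs elsewhere were as high before balancing. By raw counts, contacts across either edge lay below the mean: 115.5 to 118.5 Mb met 118.5 to 121.5 Mb at 0.423 times the mean in ATRA, 0.501 in TPA and 0.438 in untreated cells. Windows between 112.5 and 118.5 Mb, beside each other outside the stretch, were at 0.429, 0.480 and 0.547. At the right edge 136.5 to 139.5 Mb met 139.5 to 142.5 Mb at 0.334 times in ATRA, 0.398 in TPA and 0.358 in untreated cells, well under the 0.653, 0.691 and 0.625 of the windows beside each other between 139.5 and 145.5 Mb. After balancing, the left edge stood at 0.642 in ATRA, 0.753 in TPA and 0.710 in untreated cells. This was above the windows outside it, at 0.485, 0.558 and 0.634. The right edge stood at 0.678, 0.829 and 0.807 after balancing, against 0.941, 1.02 and 0.991 for the windows outside it.

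**Figure D2:**
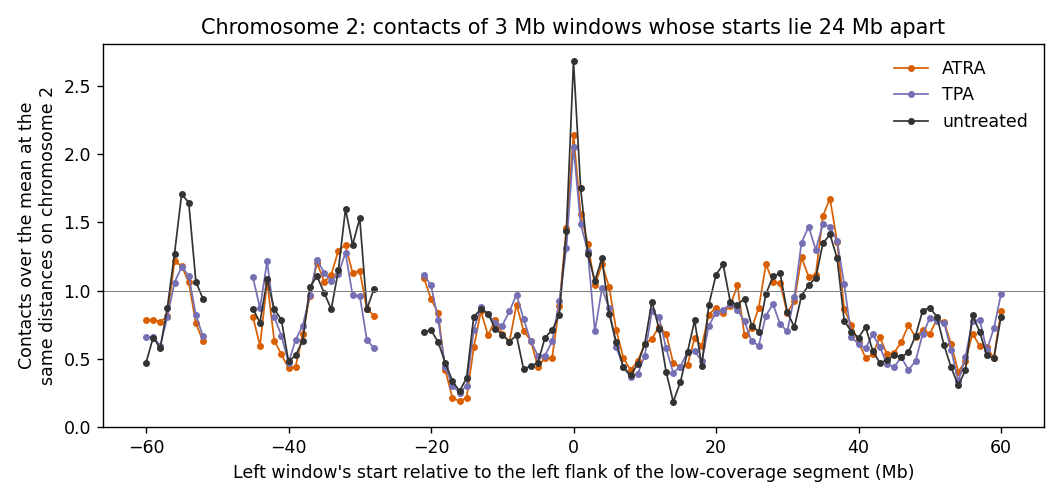
Contacts between windows of 3 Mb on chromosome 2 whose starts lie 24 Mb apart, over the chromosome's mean at the same distances (raw contacts), against the start of the left window relative to 115.5 Mb, the left flank of the low-coverage stretch. The plot covers 60 Mb on either side, and lines break where the centromere leaves too few bins; the pair at the flanks, at 0, stands at 2.14 in ATRA, 2.05 in TPA and 2.68 in untreated cells.

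At 31.5 Mb coverage stepped down by 0.49 in ATRA, 0.55 in TPA and 0.63 in untreated cells, and at 49.5 Mb by 0.42, 0.53 and 0.51, both where the mean compartment score passed from the A to the B side. At 97.0 Mb it stepped up by 0.83, 0.94 and 0.90 beyond the centromere, and at 216.0 Mb by 0.52, 0.58 and 0.50, both where the score passed from the B to the A side. At 233.5 Mb coverage stepped up by 0.48, 0.46 and 0.43 although the score passed from the A side (1.25) to the B side (-0.116), unlike at the 4 steps just named. Runs of at least 3 bins under 0.4 times the median in every matrix lay only beside the centromere, at 89.5 to 91.5 Mb and 92.5 to 95.5 Mb, and no run on either chromosome exceeded 2.5 times the median.

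On chromosome 11 the tip of the short arm was the low stretch. From 0 to 28 Mb the median coverage was 0.547 in ATRA, 0.551 in TPA and 0.561 in untreated cells, against 1.04, 1.01 and 0.984 at 28 to 52 Mb and 1.10, 1.11 and 1.15 on the long arm. The largest change between neighbouring bins near the step, a part of the whole change, lay here: 27.5 Mb stood at 0.583 in ATRA, 0.547 in TPA and 0.504 in untreated cells, and 28.0 Mb at 0.880, 0.863 and 0.776. The step placed there, at 29.0 Mb, measured 1.51 on the log2 scale in ATRA, 1.45 in TPA and 1.51 in untreated cells, larger than every step of chromosome 2. Without contacts with chromosomes 6 and 8, an alternative chosen after the data were seen, the step was 1.41, 1.31 and 1.35. Both sides of the compartments were low in the tip: 17 bins of the A side had a median of 0.509 in ATRA, 0.571 in TPA and 0.585 in untreated cells, and 39 bins of the B side 0.556, 0.547 and 0.542. Contacts per bin pair at 1 to 5 Mb within the tip were 8.78 in ATRA, 11.4 in TPA and 12.8 in untreated cells, against 13.2, 17.7 and 18.9 at 28 to 52 Mb. The other steps, at 36.0, 42.5 and 48.5 Mb, traced a B-side trough between A-side peaks, with -0.55 in ATRA, -0.48 in TPA and -0.67 in untreated cells at the first, 0.55, 0.63 and 0.78 at the second and -0.73, -0.96 and -1.10 at the last. Low runs lay at 22 to 23.5 Mb, at 24.0 to 27.0 Mb and at the centromere, from 51.5 to 54.5 Mb.

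**Figure D3:**
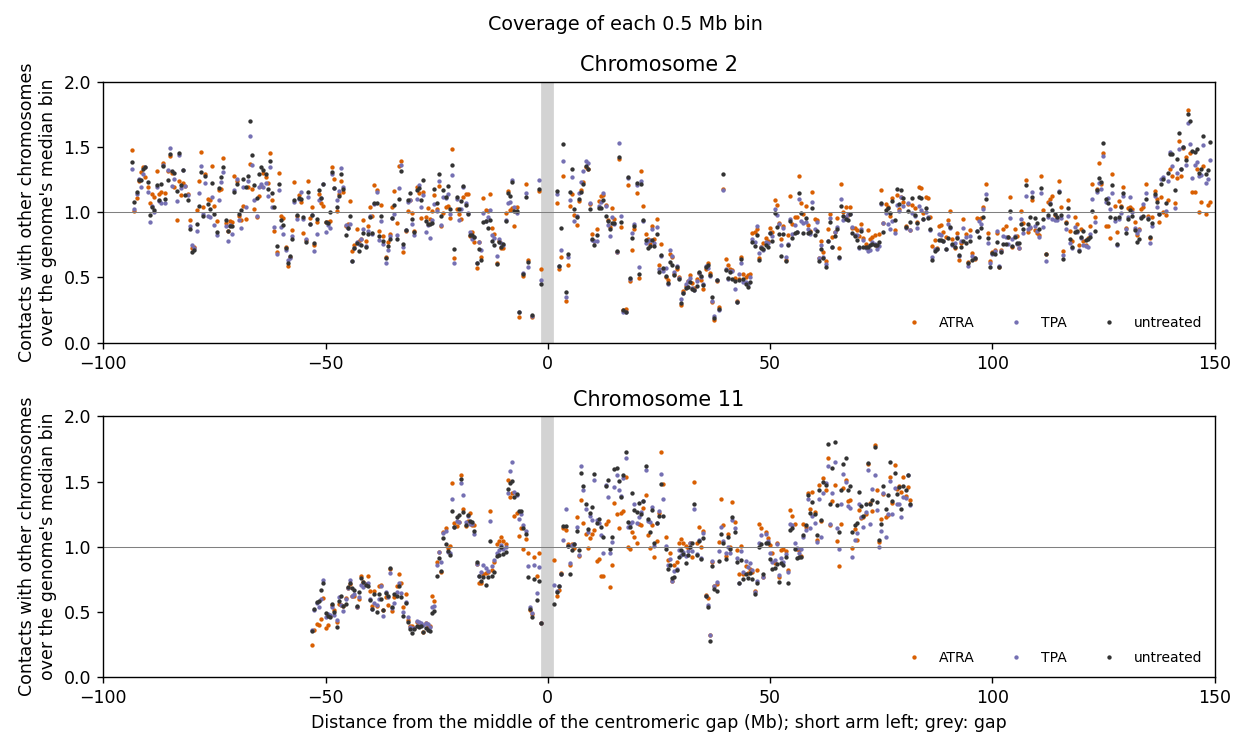
Contacts of each bin of 0.5 Mb with other chromosomes over the genome's median bin, against the distance in Mb from the middle of the centromeric gap (grey), with the short arm on the left. Points are bins in ATRA, TPA and untreated cells; chromosome 2 has a trough at 0.514, 0.493 and 0.485 on the long arm, and chromosome 11 is low over the tip of the short arm, at 0.547, 0.551 and 0.561.

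At the same boundary, contacts of chromosome 11 with an amplified stretch of chromosome 8 began. HL60 is known to carry extra copies of part of the long arm of chromosome 8, and the 10 bins at 126 to 131 Mb had a median coverage of 8.93 in ATRA, 9.70 in TPA and 9.41 in untreated cells. From 28 to 36 Mb, chromosome 11 met that stretch with 1945 contacts in ATRA, 2575 in TPA and 2658 in untreated cells, or 3.30 times expected from coverage in ATRA (3.15 to 3.45), 4.37 in TPA (4.20 to 4.54) and 4.83 in untreated cells (4.65 to 5.02). From 36 to 52 Mb it was at 2.44, 3.16 and 2.98 times. On the long arm the excess was smaller: 54.5 to 74.5 Mb stood at 1.67 in ATRA, 1.72 in TPA and 1.71 in untreated cells, and 114.5 to 135.0 Mb at 1.16, 1.32 and 1.25. The low-coverage tip from 0 to 28 Mb had no excess, at 0.907 in ATRA (0.848 to 0.968), 0.924 in TPA (0.866 to 0.986) and 0.894 in untreated cells (0.835 to 0.956).

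The onset lay within 1 bin. The bin at 27.5 Mb met the stretch with 15 contacts in ATRA, 13 in TPA and 23 in untreated cells, at 0.801, 0.736 and 1.47 times expected. The next bin, at 28.0 Mb, met it with 132, 155 and 157 contacts, at 4.67, 5.56 and 6.54 times. The rest of chromosome 8 gave no such profile, with 1.01 times expected for 28 to 36 Mb in ATRA, 1.02 in TPA and 0.991 in untreated cells.

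The end of the long arm of chromosome 6 showed the same boundary on chromosome 11. From 118.5 Mb to its end, chromosome 6 met the bins at 28 to 36 Mb of chromosome 11 more than coverage gave, by 1.81 times in ATRA, 2.05 in TPA and 2.20 in untreated cells, and those at 36 to 52 Mb by 1.81, 2.14 and 2.24 times. On the long arm of chromosome 11 the 4 stretches lay between 1.31 and 1.40 in ATRA, 1.48 and 1.69 in TPA and 1.30 and 1.55 in untreated cells. The tip was at 1.04 in all 3 matrices, and chromosome 6 below 118.5 Mb was at 1.08 times with chromosome 11 from 28 Mb on in ATRA, 1.07 in TPA and 1.09 in untreated cells. Unlike the contacts with chromosome 8, these were spread over the whole end of chromosome 6: in windows of 5 Mb from 120 Mb on, 28 to 52 Mb of chromosome 11 stood between 1.66 and 2.08 in ATRA.

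Against untreated cells, the excess from 28 to 36 Mb with the chromosome 8 stretch was lower by a log2 ratio of -0.55 in ATRA and -0.15 in TPA, and the excess from 28 to 52 Mb with the end of chromosome 6 by -0.30 in ATRA and -0.08 in TPA. TPA was not lower everywhere. With chromosome 8 it stood below untreated cells only at 28 to 36 Mb and at 94.5 to 114.5 Mb (1.36 against 1.46). With the end of chromosome 6 it stood above them on all 4 stretches of the long arm. There ATRA was also slightly above untreated cells at 54.5 to 74.5 Mb (1.35 against 1.31) and at 114.5 to 135.0 Mb (1.31 against 1.30), with overlapping intervals. With bin coverage taken from chromosomes other than 6, 8 and 11, chosen after the data were seen, the ATRA values were -0.69 and -0.40. Because chromosome 11 and these stretches enter the rule that chose the chromosomes, these contacts are given as a description.

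**Figure D4:**
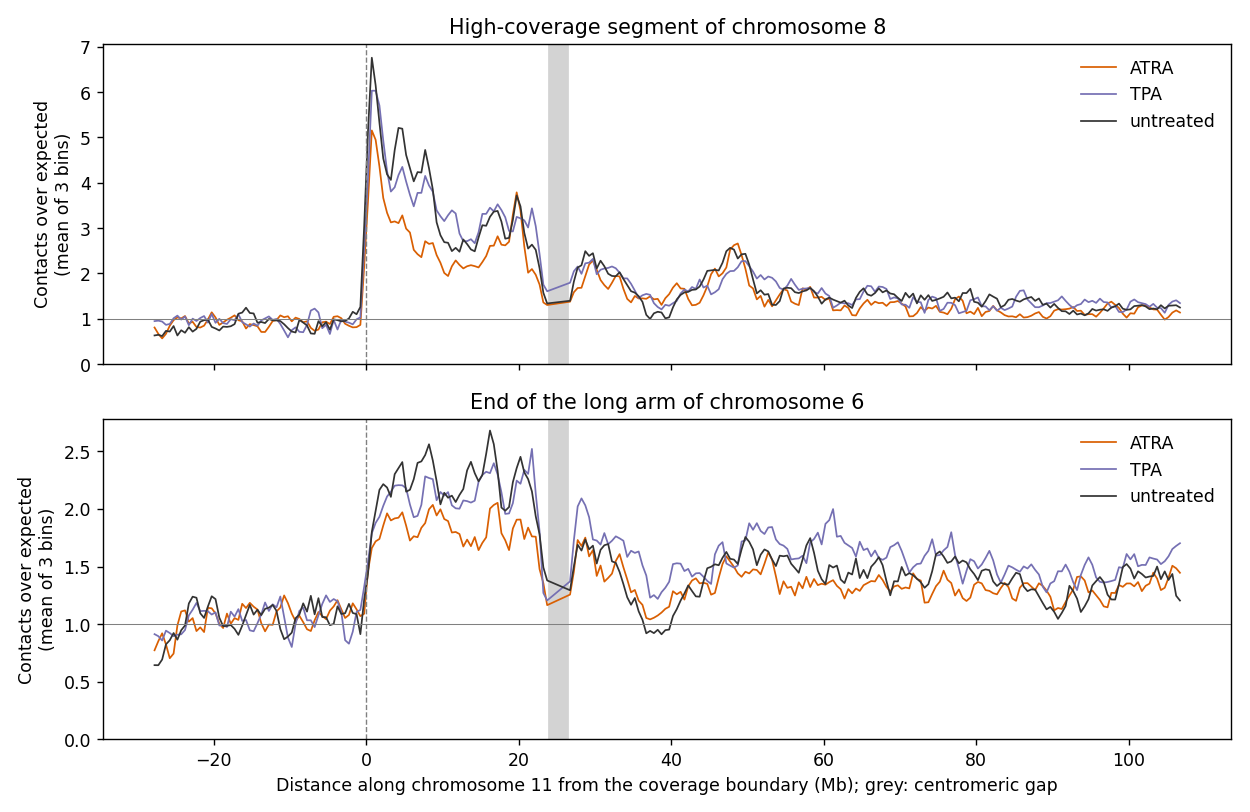
Contacts of each bin of chromosome 11 over expected, as a running mean of 3 bins, with 126 to 131 Mb of chromosome 8 (top) and with chromosome 6 from 118.5 Mb (bottom), against the distance in Mb from the coverage boundary at 28 Mb (dashed); the centromeric gap is grey. Left of the boundary the tip lies near 1 in ATRA, TPA and untreated cells, and right of it the lines average 3.30, 4.37 and 4.83 times expected over the first 8 Mb in the top panel.

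Over whole chromosomes, chromosome 6 and chromosome 8 were the strongest partners of chromosome 11, at 1.14 and 1.12 times the contacts expected from chromosome coverage in ATRA, 1.22 and 1.18 in TPA and 1.18 and 1.17 in untreated cells. Without the segments just described they stood at 1.05 and 1.03 in ATRA, 1.05 and 1.04 in TPA and 1.06 and 1.04 in untreated cells. The weakest was chromosome 16, at 0.906 in ATRA, 0.868 in TPA and 0.882 in untreated cells. Chromosome 14, chromosome 21 and chromosome 18 were also among the lowest in each matrix, between 0.930 and 0.950 in ATRA, 0.876 and 0.907 in TPA and 0.893 and 0.911 in untreated cells.

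Chromosome 2 had a flatter profile, from 0.901 to 1.06 in ATRA, 0.872 to 1.06 in TPA and 0.845 to 1.08 in untreated cells. Its strongest partner was chromosome X in all 3 matrices (1.06 in ATRA, 1.06 in TPA and 1.08 in untreated cells), with chromosomes 13 and 4 next or close to it, and its weakest were the small and gene-rich chromosomes 16, 17, 19 and 22 and chromosome 21. Chromosome 22 stood at 0.902 in ATRA, 0.910 in TPA and 0.845 in untreated cells, and chromosome 17 at 0.931, 0.926 and 0.875. These were the largest differences from untreated cells, with log2 ratios of 0.09 in ATRA (0.06 to 0.13) and 0.11 in TPA (0.07 to 0.14) for chromosome 22. In ATRA the direction for chromosomes 22 and 17 turned when expected contacts came from chromosome lengths, to -0.08 and -0.02. Chromosomes 2 and 11 met each other at 1.01 times expected in all 3 matrices. The long arm of chromosome 11 nearest the centromere, from 54.5 to 74.5 Mb, met the first 5 Mb of chromosome 19, the most gene-dense human chromosome, at 2.48 times the expectation of its coverage in ATRA, 2.23 in TPA and 2.87 in untreated cells.

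The compartment pattern along both chromosomes was alike in the 3 conditions. The score of a bin is the first eigenvector of the correlation of its balanced contacts within the chromosome, in units of its SD, with the A side turned towards chromosome 19. Across the bins of chromosome 2 the score correlated with the untreated one at r = 0.929 in ATRA and 0.878 in TPA, and across those of chromosome 11 at 0.928 and 0.880, beside medians of 0.917 and 0.846 over 23 chromosomes. ATRA and TPA correlated at 0.951 on chromosome 2 and 0.944 on chromosome 11. Neighbouring bins are not independent, and these values are descriptions over 475 and 265 bins. Scores built from contacts with other chromosomes followed the same pattern, at r = 0.858 on chromosome 2 and 0.893 on chromosome 11 in the sum of the matrices. The balancing mattered for chromosome 11: without it the scores no longer followed the same axis in the 3 matrices, and correlated with the balanced ones at -0.0101 in ATRA, 0.433 in TPA and -0.820 in untreated cells. Unbalanced scores therefore cannot be read as sides here. They correlated with the untreated ones at 0.481 in ATRA and 0.0747 in TPA, and followed the coverage boundary at 28 Mb in part, with r = -0.448 in ATRA, -0.558 in TPA and -0.244 in untreated cells. From contacts with other chromosomes chromosome 11 gave 0.959 in ATRA and 0.947 in TPA, and chromosome 2 gave 0.901 and 0.846.

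In the sum of the matrices, chromosome 2 held 43 A and 43 B segments, with medians of 1.5 Mb and 2.5 Mb, and its longest was a B segment of 10.5 Mb from 75.0 to 85.5 Mb. Its longest A segments measured 7.0 Mb, at 42.0 to 49.0 Mb and 96.5 to 103.5 Mb. Chromosome 11 held 22 A and 22 B segments, with medians of 0.5 Mb and 2.5 Mb, and an A segment of 17.5 Mb, from 60.5 to 78.0 Mb on the long arm beyond the centromere, stood above all others. Its mean score was 1.67 in ATRA, 1.42 in TPA and 1.68 in untreated cells, and 35, 34 and 35 of its 35 bins were on the A side. The longest B segments were 15.5 Mb at 96.0 to 111.5 Mb, with a mean score of -0.740 in ATRA, -0.736 in TPA and -0.749 in untreated cells, and 14.0 Mb at 18.5 to 32.5 Mb, with -0.732, -0.830 and -0.629. The segment at 18.5 to 32.5 Mb spans the coverage boundary at 28 Mb. The highest scores of chromosome 2 in the summed matrix lay at 219.0, 70.0, 113.0, 232.0 and 25.5 Mb, between 2.11 and 2.37 in ATRA, 2.00 and 2.34 in TPA and 1.77 and 2.12 in untreated cells, and its lowest at 107.5, 105.0, 116.0, 104.5 and 116.5 Mb. On chromosome 11 the highest lay at 118.0, 68.0, 68.5, 72.0 and 72.5 Mb, between 1.80 and 2.17 in ATRA, 1.67 and 2.03 in TPA and 1.77 and 2.07 in untreated cells, and the lowest at 42.5, 56.0, 55.5, 90.0 and 92.0 Mb.

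**Figure D5:**
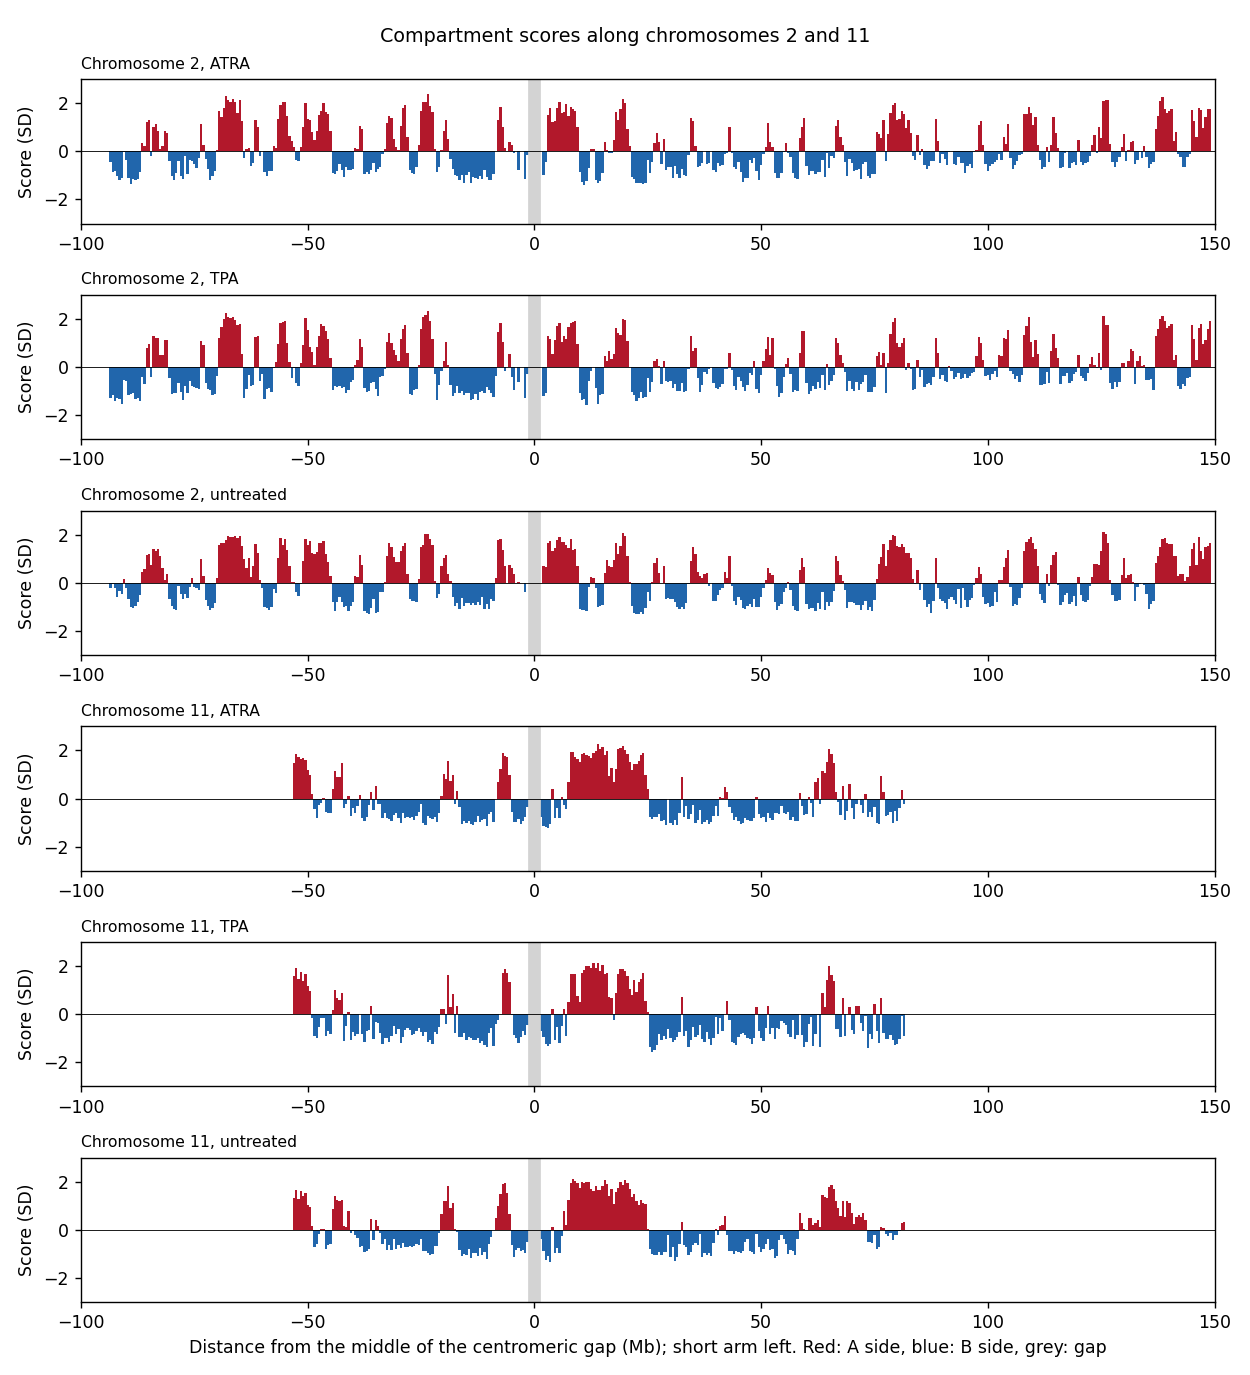
Compartment score of each bin, in SD of the chromosome's scores, against the distance in Mb from the middle of the centromeric gap (grey), for ATRA, TPA and untreated cells; bins on the A side are red and those on the B side blue. Chromosome 11 has a long A segment of 17.5 Mb beyond the centromere in all 3, and a stretch near the end of the long arm that is positive in untreated cells, with a mean score of -0.251 in ATRA, -0.302 in TPA and 0.777 in untreated cells.

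The A side, here a score above 0, covered less of both chromosomes in treated cells. It held 44.0% of the bins of chromosome 2 in ATRA, 41.1% in TPA and 49.1% in untreated cells, and 35.1%, 31.3% and 43.0% of those of chromosome 11. The medians of 23 chromosomes were 44.1%, 38.8% and 49.6%. Scores were not centred on each chromosome, so a shift of all scores of a matrix would also change these shares. No share from centred scores is given. A switching bin was one whose score passed 0.5 SD in untreated cells and lay under -0.5 SD after treatment, or the reverse, and all of them went from A to B. In ATRA 1 bin of chromosome 2 and 4 of chromosome 11 did so, beside 0.497% of all bins of the genome, and in TPA 7 and 6 bins did so, beside 2.54%. From B to A no bin moved on either chromosome, beside 0.249% of bins in ATRA and 0.213% in TPA. As shares of the bins used, these counts were 0.211% in ATRA and 1.47% in TPA on chromosome 2, both under the background, and 1.51% in ATRA and 2.26% in TPA on chromosome 11, the first above it and the second just under it. The 4 bins of chromosome 11 in ATRA lay in a single stretch of dependent bins, and without balancing their number was 0 in ATRA and 0 in TPA, on scores that differ as given above. With scores centred on their mean, an alternative chosen after the data were seen, the counts were 3 in ATRA and 6 in TPA on chromosome 2 and 2 and 1 on chromosome 11.

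The switching bins of chromosome 11 all lay within 6.5 Mb. The 4 bins in ATRA lay at 120.5, 121.5, 122.0 and 125.5 Mb and the 6 bins in TPA at 119.5, 120.0, 120.5, 121.5, 123.0 and 125.5 Mb, and 3 bins were shared. Over the 13 bins from 119.5 to 126.0 Mb the mean score was -0.251 in ATRA, -0.302 in TPA and 0.777 in untreated cells. The score lay above 0 in 3 of the bins in ATRA, 5 in TPA and all 13 in untreated cells. The stretch was delimited by its switching bins, and both treatments are set against the same untreated matrix, so these scores are a description. Scores from their contacts with other chromosomes averaged -0.496 in ATRA, -0.349 in TPA and 0.123 in untreated cells, and were lower than untreated in 13 bins in ATRA and 12 in TPA. By that measure the 3 bins that switched in both treatments lay below 0 in untreated cells too, with -0.0484 at 120.5 Mb, -0.148 at 121.5 Mb and -0.176 at 125.5 Mb. Neither this measure nor the score within the chromosome was centred on each chromosome, so the sign of either alone does not give a side. With scores within the chromosome centred on their mean, 2 bins of chromosome 11 switched in ATRA and 1 in TPA. Coverage of the stretch was 1.28 in ATRA, 1.26 in TPA and 1.33 in untreated cells. The largest single change in ATRA was at 122.0 Mb, with a score of -0.524 in ATRA, 0.01 in TPA and 1.21 in untreated cells. In TPA it was at 119.5 Mb, with 0.291 in ATRA, -0.603 in TPA and 1.21 in untreated cells.

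On chromosome 2 the switching bins lay in TPA at 7.5, 29.5, 30.0, 31.5, 95.5, 96.0 and 171.0 Mb and in ATRA at 95.5 Mb, so 5 of the 7 lay in 2 short groups. The 5 bins from 29.5 to 32.0 Mb had a mean score of -0.223 in ATRA, -0.820 in TPA and 0.720 in untreated cells, and -1.11, -1.13 and -0.503 from contacts with other chromosomes. The scores from other chromosomes, like those within the chromosome, were not centred on each chromosome. In untreated cells A segments of chromosome 2 lay on both sides of 0 by them, such as 24.0 to 29.5 Mb at 1.84 and 54.0 to 56.0 Mb at -0.611. Their sign therefore does not give the side of the stretch. The largest change was at 29.5 Mb in TPA, with a score of -0.273 in ATRA, -1.30 in TPA and 1.01 in untreated cells. The bin at 171.0 Mb, with -0.418 in ATRA, -1.09 in TPA and 0.718 in untreated cells, had nearly the same score from contacts with other chromosomes in TPA (-0.941) as in untreated cells (-0.972).

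The separation of A from B contacts differed between the chromosomes and between the treatments. The saddle strength, the ratio of contacts within the top and within the bottom 20% of bins to contacts between them, was 3.11 in ATRA, 2.85 in TPA and 3.14 in untreated cells on chromosome 2, and 4.23, 3.33 and 3.94 on chromosome 11. The medians of 23 chromosomes were 3.18, 2.85 and 3.06. Against untreated cells it was 0.989 times as high in ATRA on chromosome 2 (0.956 to 1.02) and 0.907 in TPA (0.879 to 0.936). On chromosome 11 it was 1.07 times as high in ATRA (1.02 to 1.14) and 0.845 in TPA (0.804 to 0.887). With the top and bottom 10% of bins the log2 ratio of TPA over untreated cells on chromosome 11 was 0.15 in place of -0.24, so its direction depended on the share of bins, and on chromosome 2 it was -0.03 in place of -0.14. For ATRA on chromosome 2, where the interval held 1, the log2 ratio was 0.11 with 10% of bins and 0.06 with bins ordered by the summed matrix, in place of -0.02.

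Bin coverage shifted in opposite directions on the A and B sides in treated cells, most on chromosome 11. The log2 ratio of a bin's share of all contacts, ATRA over untreated, had a median of -0.21 in 67 A bins and 0.15 in 147 B bins of chromosome 11, and of -0.04 in 159 A bins and 0.14 in 199 B bins of chromosome 2. In 1828 A bins and 2470 B bins of the 5630 used in the genome the medians were -0.08 and 0.13. These groups are narrower than the sides used above. Of the 265 bins of chromosome 11 and the 475 of chromosome 2, the rest are in neither group. In TPA they were -0.10 and 0.10 on chromosome 11, -0.04 and 0.08 on chromosome 2 and -0.05 and 0.08 over the genome. From contacts with other chromosomes alone the medians in ATRA were -0.20 and 0.11 on chromosome 11, -0.04 and 0.12 on chromosome 2 and -0.09 and 0.09 over the genome. In TPA they were smaller, at -0.03 and 0.05 on chromosome 11, -0.02 and 0.01 on chromosome 2 and -0.03 and 0.03 over the genome.

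Past a log2 ratio of 0.3, ATRA had 8 bins higher and 16 lower of 265 on chromosome 11, and 2 higher and 2 lower of 475 on chromosome 2. This is 3.02% and 6.04% of the bins of chromosome 11 and 0.421% each of chromosome 2, beside 0.888% higher and 5.72% lower in the genome. The 16 lower bins of chromosome 11 were all on the A side and the 8 higher ones all on the B side. The lowest were at 65.0 Mb, with 3085 contacts in ATRA and 5023 in untreated cells (-0.56), and at 1.5 Mb, with 1471 and 2335 (-0.52). The bins at 0.5, 64.5 and 65.5 Mb followed, between -0.50 and -0.49, and the whole block from 60 to 70 Mb had a median of -0.30 in ATRA and -0.13 in TPA. The highest was the bin at 54.5 Mb next to the centromeric gap, with 2424 contacts in ATRA and 1567 in untreated cells (0.77), and 50.5, 51.0, 48.5 and 27.0 Mb followed, between 0.38 and 0.54.

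On chromosome 2 the bins past 0.3 in ATRA were at 92.0 Mb (0.47) and 80.5 Mb (0.32) on the higher side and at 242.5 Mb (-0.34) and 219.0 Mb (-0.30) on the lower side. In TPA no bin of chromosome 2 passed in either direction, and on chromosome 11 the bin at 54.5 Mb was higher (0.33) and the bin at 65.5 Mb lower (-0.33), beside 0.124% of bins higher and 0.0533% lower in the genome. The bins at 54.5 and 65.5 Mb thus moved in the same direction in both treatments, but both comparisons share the untreated matrix.

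Few single pairs of bins within the chromosomes differed. Pairs at least 1 Mb apart with at least 20 contacts in the treated and untreated matrices together were called where their contacts over the mean at the same distance differed at least 2-fold and a strict counting interval left out the change expected from distance. In ATRA 6 pairs were higher and 11 lower of 3060 on chromosome 2, and 2 higher and 5 lower of 1953 on chromosome 11, beside 0.185% higher and 0.225% lower of all such pairs. In TPA 12 were higher and 22 lower of 3647 on chromosome 2, and 8 higher and 10 lower of 2225 on chromosome 11, beside 0.356% and 0.368%. The shares of lower pairs on chromosome 2, 0.359% in ATRA and 0.603% in TPA, lay above those of the genome, and its shares of higher pairs, 0.196% and 0.329%, near them. On chromosome 11 the shares were 0.102% higher and 0.256% lower in ATRA and 0.360% and 0.449% in TPA. The pair at 225.5 and 227.5 Mb of chromosome 2 held 20 contacts in ATRA, 28 in TPA and 66 in untreated cells, and the pair at 106.5 and 109.5 Mb held 11, 16 and 43. Pairs at 122.5 and 128.0 Mb (2 in ATRA, 5 in TPA and 22 in untreated cells), at 86.5 and 95.5 Mb (2, 4 and 20) and at 20.0 and 55.0 Mb (2, 2 and 20) were also lower in each treatment. Among the higher pairs of chromosome 2, 230.0 with 233.0 Mb had 19 contacts in ATRA and 4 in untreated cells. Another, 207.5 with 209.5 Mb, had 21 in TPA and 2 in untreated cells. On chromosome 11, 70.5 with 72.5 Mb had 12 contacts in ATRA and 55 in untreated cells, and 117.5 with 134.0 Mb had 26 and 7. In TPA, 31.0 with 33.5 Mb had 22 contacts and 5 in untreated cells, 112.5 with 115.0 Mb had 13 and 45, and 121.0 with 123.5 Mb, inside the stretch with the switching bins, had 5 and 27.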

How the data were processed

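Cells were fixed with formaldehyde and their chromatin cut with HindIII, and ligation took place in solution, according to the labels' protocols. The series' design text names Bowtie for alignment, HiCUP for filtering and HOMER for binning. Per the submitters' processing notes, HOMER was version 4.7 and the build hg19. For Bowtie a version is not given. What the authors deposited, per the file headers and labels, are raw contact counts in 3 matrices with bins of 500 kb, where libraries of 1 condition are summed.

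From these counts, contacts on the diagonal were halved, and in 1 cell of the untreated matrix that differed from its mirror the upper triangle was used. Compartment and coverage measures leave out bins whose coverage lay under 0.2 times the median bin in at least 1 matrix, and matrices were balanced in 60 iterations for compartments. Shares carry exact binomial intervals, and ratios exact conditional binomial or delta-method intervals, all at 95% unless stated. Read pairs copied by PCR are not covered by the intervals. All measures were computed on 23 chromosomes with Python 3.11.15, numpy 2.4.6, scipy 1.17.1 and pandas 2.3.3, and the scripts were tested on simulated data.

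Named positions were the 5 highest and lowest scores, coverage changes and partners, all steps, low runs and switches, and up to 10 pairs per chromosome and direction. The limits at 118.5 and 139.5 Mb of chromosome 2 and 28 Mb of chromosome 11 are the largest changes between neighbouring bins within 6 bins of a step. The stretch of chromosome 8 runs from its first to its last bin above 2.5 times the median, and chromosome 6 was split where its contacts with 28 to 52 Mb of chromosome 11 divided best. These rules and the windows were chosen after the data were seen. The chromosomes and lists were chosen with earlier results of these data known. Lists of genes planned for both chromosomes were not used, because the annotation at hand, RefSeq on GRCh38.p14, is of another build than the files. It gave only the counts of protein-coding genes per chromosome. No p-value is given, since each condition is a single matrix. Other distance limits, expectations, thresholds, windows and filters and unbalanced contacts were tried.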

Additional observations from a re-analysis of the deposited data

How the results depend on the processing

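Each condition is a single matrix, so no replicate could be left out. No paired analysis was possible because the libraries of a condition were summed before deposit. Of 160 values recomputed under another setting, 84 stayed within counting error or within 1.5 times the main count, 70 moved and 6 that had exceeded counting error changed direction. In 4 others the sign turned from a main value within counting error of 0: the saddle strength of chromosome 2 in ATRA (main -0.0162) and contacts of chromosomes 2 and 11 with each other in ATRA without the segments (-0.00765) and in TPA by length (-0.00377). The cause was not tested for any of them. The settings that centre the scores, leave out stretches of chromosomes 6 and 8 or take coverage from other chromosomes were chosen after the data were seen. The 6 were those of contacts between the arms of chromosome 11 in TPA with expected contacts from all chromosomes (0.0111), of its saddle strength in TPA with 10% of bins (0.152), of its contacts with chromosome 6 in ATRA by chromosome length (0.0109) and in TPA without the segments (-0.0115), and of the contacts of chromosome 2 with chromosomes 22 (-0.0806) and 17 (-0.0202) in ATRA by length, all on the log2 scale. With a limit of 5 Mb the short-range share differed from untreated cells by -7.39 points on chromosome 2 in ATRA and -8.58 on chromosome 11 in TPA, and with balanced contacts by -7.27 on chromosome 11 in ATRA. The 1 to 10 Mb slope of chromosome 11 differed from untreated by 0.131 in ATRA with balanced contacts, by 0.0863 in ATRA and 0.148 in TPA on the short arm and by 0.224 in ATRA and 0.227 in TPA on the long arm; the 10 to 100 Mb slope of chromosome 2 in TPA differed by -0.0718 on the long arm. Log2 changes between arms were 0.0516 (chromosome 2, ATRA) and -0.172 (chromosome 11, TPA) balanced, and -0.0598 (chromosome 11, ATRA) with expected contacts from all chromosomes. Correlations with untreated scores were 0.901 (ATRA) and 0.846 (TPA) on chromosome 2 and 0.959 and 0.947 on chromosome 11 from other chromosomes, 0.853 (chromosome 2, TPA), 0.481 (chromosome 11, ATRA) and 0.0747 (chromosome 11, TPA) without balancing, and 0.911 in ATRA and 0.839 in TPA on the arms of chromosome 11. Switches from A to B numbered, in ATRA and TPA, 0 and 1 on chromosome 2 and 0 and 0 on chromosome 11 without balancing, 9 and 19 and 9 and 15 at 0.25 SD, and, with centred scores, 3 in ATRA on chromosome 2 and 2 and 1 on chromosome 11. By arm, 2 were found on chromosome 2 in ATRA. Switches from B to A numbered 1 in ATRA and 2 in TPA on chromosome 2 and 1 in TPA on chromosome 11 at 0.25 SD, and 1 in TPA on chromosome 2 by arm. Log2 saddle changes with 10% of bins were 0.106 in ATRA, with the sign turned, and -0.0257 in TPA on chromosome 2 and 0.361 in ATRA on chromosome 11, and 0.0648 in ATRA on chromosome 2 ordered by the summed matrix, with the sign turned. Windows of 20 bins gave 3 steps on chromosome 2 and 2 on chromosome 11, and all contacts gave 7 on chromosome 11. Past 0.2, coverage was higher and lower in ATRA in 39 and 20 bins of chromosome 2 and 40 and 35 of chromosome 11, and in TPA in 6 and 1 and 18 and 2; with contacts with other chromosomes it was higher in 4 and lower in 8 bins of chromosome 2 in ATRA and lower in 0 of chromosome 11 in TPA. Log2 changes in ATRA by length were 0.0597 for chromosome 2 with 11 and -0.0194 for 11 with 8, without the segments -0.0229 for 11 with 6 and -0.0168 for 11 with 8, and with coverage from other chromosomes -0.693 and -0.404 for the stretches that meet chromosomes 8 and 6. Pairs at a minimum of 40 contacts numbered 4 lower on chromosome 2 and 1 higher and 1 lower on chromosome 11 in ATRA, and 4 higher and 11 lower on chromosome 2 and 4 and 4 on chromosome 11 in TPA. A mean of 0.521 contacts per bin pair in ATRA, 0.563 in TPA and 0.574 in untreated cells limits statements on single pairs.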
